A study of Homo sapiens with 10 samples.

Results

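The response of MDA-MB-468 cells to PKC412 was measured in 5 transcriptomes, 2 from cells in DMSO and 3 from cells in PKC412, out of 10 transcriptomes in the series. MDA-MB-468 is an established human breast cancer cell line that the labels class as basal. PKC412 (midostaurin) is a staurosporine derivative that inhibits many protein kinases, and DMSO is its solvent. Cells were exposed in dishes for 6 h, at a PKC412 dose of 1 µM per the labels. Legends of the study name a lower dose for this experiment, and which of them holds was not settled here. The 2 groups differed only in the agent. The other 5 samples came from the luminal breast cancer line ZR75-1 under the same 2 treatments (2 DMSO, 3 PKC412). They serve here as a comparison, and they share in the estimate of spread behind the p-values. Members were the genes with a mean above 1 FPKM (fragments per kilobase of transcript, scaled to the mapped fragments of the sample) in either treatment of MDA-MB-468, which left 11430 of 23426 genes. As a model the group is a single line at a single dose and time. The labels do not say whether the samples of a treatment were separate cultures. The p-values below therefore measure only the spread between samples of a treatment within a line, which may be technical. Unless stated, this spread is pooled over both lines. In bulk RNA, fewer cells in a given state and less RNA per cell cannot be told apart.

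Several signalling systems that kinases control can be read in the transcripts they drive. NF-κB factors are held in the cytoplasm by inhibitor proteins until a kinase complex marks those inhibitors for destruction, and their targets include the inhibitors themselves and many cytokines. YAP and TAZ are co-activators that pair with TEAD factors in the nucleus, and the Hippo kinases, cell spreading and actin tension govern how much of them gets there. The ERK cascade induces AP-1 components and its own phosphatases, cAMP acts through CREB on a set of rapidly induced genes, and ATF4 drives genes of amino acid supply when translation is restrained.

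The identity of the cells was checked against marker genes. Keratins of basal breast epithelium were abundant, with KRT5 at 919 to 1091 FPKM and KRT17 at 1083 to 1523 FPKM, and EGFR was at 25.8 to 66.9 FPKM. The basal factor TP63 was at 0.0316 to 0.0723 FPKM, so that this defining basal marker was nearly absent. Among luminal markers ESR1 was at 0.147 to 0.461 FPKM and PGR was listed at 0 in all 5 samples, while KRT8, KRT18 and KRT19 were high and the luminal factors GATA3 and FOXA1 were at 4.96 to 6.31 and 1.05 to 3.77 FPKM. Of the markers of other cell types, PTPRC, CD3E, COL1A2, COL3A1, DCN and CDH5 were below 0.1 FPKM in each sample, as were PDGFRB and VWF. COL1A1 of fibroblasts was at 0.899 to 1.52 FPKM, and PECAM1 and KDR of endothelium were at 0.429 to 0.890 and 0.0846 to 0.185 FPKM. CD68 and CD14, which epithelial lines can also express, were at 10.5 to 14.7 and 11.7 to 23.3 FPKM.

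The 5 samples differed in how their values ran along the GC content of transcripts, and this difference followed the treatment. The log2 deviation of genes from the line mean rose with GC under DMSO, by 0.373 and 0.0571 per 10 percentage points. Under PKC412 the same slope was -0.286, -0.0247 and -0.119. The treatments did not overlap in this slope, and DMSO replicate 1 and PKC412 replicate 1 stood farthest apart. The median log2 fold change went from 0.55 to 0.39, 0.19, -0.01 and -0.18 over 5 equal bins of tested genes from the lowest to the highest GC content. Of the tested genes, 4883 (42.7%) had all PKC412 values above all DMSO values and 2290 (20.0%) had all of them below. In 3720 genes the 5 values rose exactly in the order of falling GC slope, and in 1269 they fell in that order. In ZR75-1 the slopes were 0.315 and -0.191 under DMSO and -0.1065, 0.339 and -0.356 under PKC412, so that the treatments overlapped there. A technical slope and an effect of the drug on GC-rich transcripts cannot be told apart in the MDA-MB-468 samples. List medians below are therefore given as deposited and after an adjustment that removes GC content and length within each sample. The median log2 fold change of all tested genes was 0.18 as deposited, 0.05 after median-ratio rescaling and 0.01 after the adjustment, and values below are to be read against it.

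**Figure D1:**
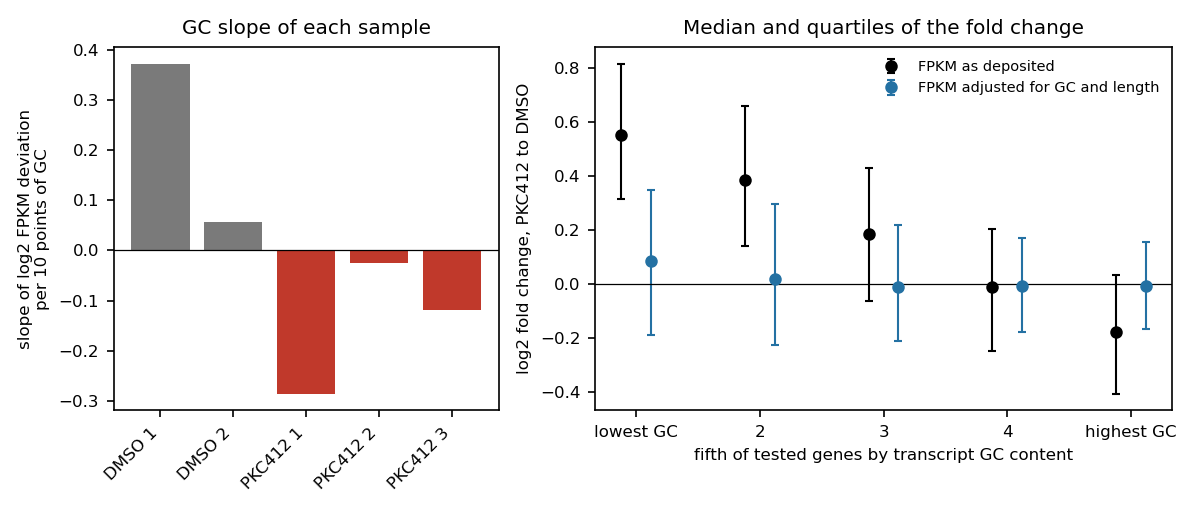
Left, slope of the log2 FPKM deviation on transcript GC content (per 10 percentage points) for each MDA-MB-468 sample, DMSO in grey and PKC412 in red. Right, median (points) and quartiles (bars) of the log2 fold change, PKC412 to DMSO, in 5 equal bins of tested genes ranked on GC content; as deposited the median falls from 0.55 to -0.18, and after adjustment for GC and length it lies between -0.01 and 0.09.

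PKC412 changed 162 of the 11430 genes (1.42%) at a limma adjusted p under 0.05. Of these, 82 were higher in PKC412 (0.717% of the tested genes) and 80 were lower (0.700%), and in all 162 the samples of the treatments did not overlap. An unadjusted limma p under 0.05 was reached by 1994 of the 11430 genes. List counts at that limit are to be read against this share. The nearest gene outside the threshold was RRAGC (adjusted p = 0.051) and the nearest inside was KLK9 (adjusted p = 0.050). The 5 values ran exactly in the order of the GC slopes in 33 of the 82 and in 14 of the 80. NFKBIA, TNFAIP3, ICAM1, PDE4B and SIK1 were among the former, and EDN2 and HRCT1 among the latter. After adjustment for GC content and length, 280 genes were higher (2.45%) and 232 lower (2.03%), among them 77 of the 82 and 75 of the 80. In 28 of the 82 genes that rose the DMSO mean was below 1 FPKM. Such genes were tested only because of their PKC412 values, so the filter set the direction of their means. The same holds for genes that fell to a PKC412 mean below 1 FPKM. The ratio of mean FPKM reached 2-fold in 67 of the genes that rose and in 54 of those that fell, and 3-fold in 35 and 19. Fitted on the 5 MDA-MB-468 samples alone, 40 and 41 of these genes passed. Under each of 16 alternative settings without a replicate block, 12 of the higher and 11 of the lower genes passed, among them NFKBIA, RELB, NFKB2, NR4A1, PDE4B, IL1RN, DDIT4, RND1, SMOC1, TSC22D3, CTGF, CYR61, FOSL1, EPHA2, EDN2 and IVL. Median-ratio rescaling ended the calls of BCL3, CHAC1, EFNA1, IKBKE, LTB, RHOV, SLC43A1 and TRIB3 among the genes named below (adjusted p from 0.056 to 0.21). The GC adjustment ended those of ARTN, KLK9 and TNFRSF12A. Fold changes below are differences of log2(FPKM + 1) between 3 PKC412 and 2 DMSO samples, given ± SE, and they understate the change of genes with low values.

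**Figure D2:**
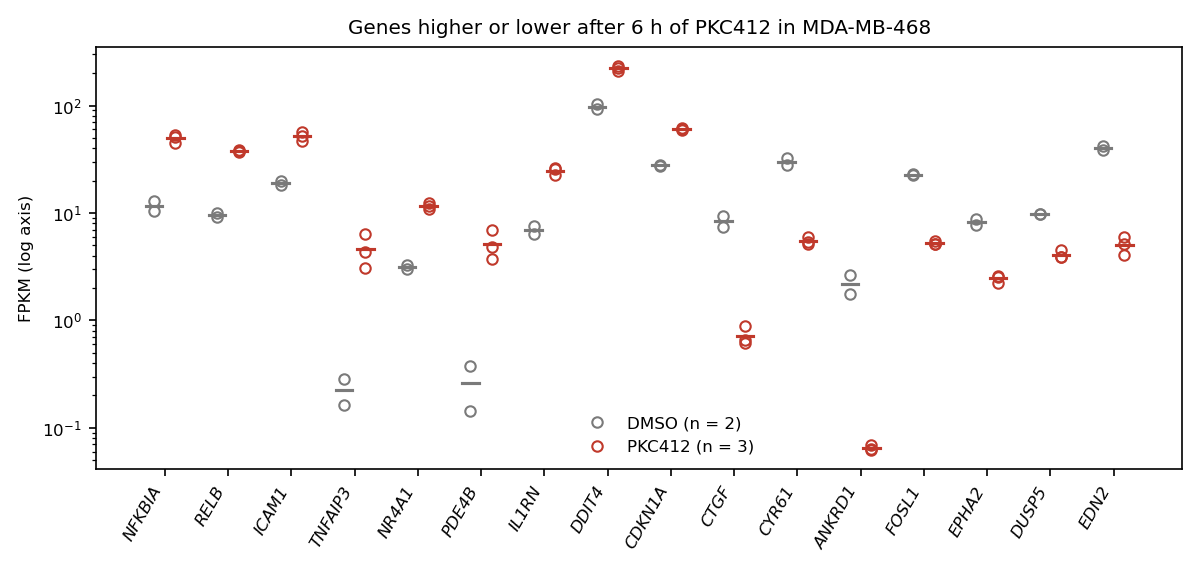
FPKM (log axis) of 16 genes in each MDA-MB-468 sample, DMSO in grey (n = 2) and PKC412 in red (n = 3), with a bar at each mean. In all 16 the treatments are separated, as for RELB (10.0 and 9.09 against 36.9, 38.4 and 37.5 FPKM) and CTGF (7.40 and 9.30 against 0.884, 0.622 and 0.658 FPKM).

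NF-κB target genes had the highest median of all lists as deposited. All 21 tested members of the list had higher values in each PKC412 sample than in each DMSO sample, where 42.7% of all genes did. By the test 8 of them rose, where 0.717% of all tested genes did. TNFAIP3, CXCL1, TNF, IL8, CXCL10 and CCL20 had DMSO means below 1 FPKM and were tested only because of their PKC412 values. For such members the filter set the direction of the means. The number that rose was 3 with either DMSO sample left out, 4 with PKC412 replicate 1 or replicate 3 left out, and 5 with a filter at 5 FPKM. The median log2 fold change of the list was 1.29, and 1.17 after the GC adjustment, under which 15 members rose. The members that passed fall into feedback inhibitors, subunits of NF-κB itself, and secreted or surface proteins.

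Among the inhibitors, NFKBIA, which encodes IκBα, was at 10.4 and 12.8 FPKM in DMSO and 53.6, 45.1 and 51.1 FPKM in PKC412 (log2 fold change 2.02 ± 0.20, adjusted p = 0.0037). TNFAIP3, the ubiquitin-editing enzyme A20 that restrains the pathway, was barely detected in DMSO and reached 3 or more FPKM in each treated sample (0.163 and 0.285 against 6.41, 3.09 and 4.29 FPKM, log2 fold change 2.15 ± 0.34, adjusted p = 0.025). The subunit gene RELB was at 10.0 and 9.09 FPKM in DMSO and 36.9, 38.4 and 37.5 FPKM in PKC412, a 3.93-fold rise of the mean (log2 fold change 1.87 ± 0.16, adjusted p = 0.0021). NFKB2, the precursor of the p52 subunit that pairs with RelB, rose 2.53-fold (9.56 and 8.64 against 23.9, 20.7 and 24.5 FPKM, adjusted p = 0.0018). BCL3, a nuclear IκB protein that binds p50 and p52, rose 1.60-fold (33.8 and 30.3 against 48.1, 51.1 and 54.8 FPKM, adjusted p = 0.040). In all 5 genes the treatments did not overlap, and the ranges within a treatment were narrow beside the gap except in TNFAIP3.

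Of the secreted and surface products, the adhesion molecule ICAM1 was at 18.3 and 20.0 FPKM in DMSO and 56.9, 46.8 and 51.8 FPKM in PKC412 (log2 fold change 1.39 ± 0.16, adjusted p = 0.0072). The chemokine CXCL1 rose from near 0 (0.136 and 0.352 against 2.43, 1.96 and 2.56 FPKM, adjusted p = 0.032). The cytokine TNF did so too (0.0726 and 0.0322 against 2.02, 1.21 and 1.54 FPKM, adjusted p = 0.025). Other cytokines had larger fold changes and a wider spread over the PKC412 samples, and did not pass. IL8 was at 0.129 and 0.140 FPKM in DMSO and 11.1, 5.62 and 7.43 FPKM in PKC412 (log2 fold change 2.95 ± 0.63, adjusted p = 0.078). CXCL10 was at 0.0681 and 0.196 against 9.75, 3.79 and 7.03 FPKM (adjusted p = 0.079). CCL20 was at 0.260 and 0.283 against 6.91, 3.71 and 4.86 FPKM (adjusted p = 0.086). All 3 passed after the GC adjustment, with adjusted p of 0.0077, 0.0081 and 0.0030. In each of them PKC412 replicate 1, the sample with the steepest negative GC slope, was highest. BIRC3, an inhibitor of apoptosis that is also an NF-κB target, was at 1.13 and 1.49 against 8.20, 5.20 and 6.25 FPKM and passed neither as deposited (adjusted p = 0.28) nor adjusted (0.16).

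The promoters of the induced inhibitors and of CXCL1 are shown because the sequence that NF-κB binds occurs in them. RefSeq promoters (GRCh38.p14, 250 bases before to 50 after the start) were searched on both strands for the 10-base NF-κB consensus, written here in capitals. Of the 19 tested list members with a promoter in the table, 11 (57.9%) held a match, against 10.8% of all 27305 promoters and 13.1% of those of tested genes. The consensus was about as frequent in genes that fell (21.6%) as in genes that rose (23.1%), and it occurred in 3 of 4 promoters of YAP and TEAD targets that fell. NFKBIA (chr14:35404700-35404999, minus strand) has 1 match that begins 81 bases before the start, and TNFAIP3 (chr6:137867009-137867308, plus strand) has 2, at 67 and 55 bases. CXCL1 (chr4:73869143-73869442, plus strand) has a match on each strand, at 79 and 78 bases, which overlap and are printed as a single run of capitals. ICAM1, TNF and NFKB2 had none in this window, which says only that these letters do not occur there.
NFKBIA: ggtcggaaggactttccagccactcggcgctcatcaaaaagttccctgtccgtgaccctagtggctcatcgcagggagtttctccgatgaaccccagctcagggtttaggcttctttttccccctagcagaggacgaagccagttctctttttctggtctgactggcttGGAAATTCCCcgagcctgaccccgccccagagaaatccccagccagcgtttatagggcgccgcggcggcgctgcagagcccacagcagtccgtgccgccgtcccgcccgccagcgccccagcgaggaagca
TNFAIP3: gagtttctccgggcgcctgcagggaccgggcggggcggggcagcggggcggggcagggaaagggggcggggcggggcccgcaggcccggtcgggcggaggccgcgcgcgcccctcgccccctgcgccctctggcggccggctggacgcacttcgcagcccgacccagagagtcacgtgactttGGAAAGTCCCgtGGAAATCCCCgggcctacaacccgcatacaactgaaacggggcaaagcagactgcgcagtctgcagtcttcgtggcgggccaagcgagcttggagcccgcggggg
CXCL1: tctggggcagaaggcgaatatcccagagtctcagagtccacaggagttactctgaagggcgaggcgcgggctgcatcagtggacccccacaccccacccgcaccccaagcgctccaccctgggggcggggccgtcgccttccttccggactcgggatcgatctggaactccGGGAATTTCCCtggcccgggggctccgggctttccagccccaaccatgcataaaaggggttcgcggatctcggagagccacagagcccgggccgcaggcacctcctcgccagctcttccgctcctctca

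Other cytokine-related and immune genes, not on the NF-κB list, went both ways. IL1RN, the secreted antagonist of the interleukin-1 receptor, was at 6.43 and 7.51 FPKM in DMSO and 25.6, 22.6 and 26.3 FPKM in PKC412 (log2 fold change 1.70 ± 0.13, adjusted p = 0.0012). LTB, which encodes lymphotoxin β, rose 12-fold (0.154 and 0.224 against 1.76, 2.21 and 2.84 FPKM, adjusted p = 0.050). CD83, a surface glycoprotein of the immunoglobulin family, rose 2.97-fold (3.61 and 4.08 against 12.5, 10.0 and 11.7 FPKM, adjusted p = 0.0076). CD55, which protects cells from complement, rose 3.37-fold (6.92 and 9.12 against 32.9, 20.8 and 27.4 FPKM, adjusted p = 0.046). In contrast, TNFSF9 fell (4.10 and 4.34 against 1.78, 2.34 and 1.82 FPKM, adjusted p = 0.036). So did C10orf54 (VSIR; 9.9 and 9.7 against 3.4, 3.5 and 4.0 FPKM, adjusted p = 0.0037). GADD45B fell as well (51.4 and 43.0 against 18.2, 21.7 and 22.3 FPKM, adjusted p = 0.024). TNFSF9, C10orf54 and GADD45B were picked after their values were seen. Of 29 tested interferon-stimulated genes, 1 rose (0.717% of all tested genes did) and the median was 0.24 as deposited and 0.09 adjusted. The member that rose was OASL, an RNA-binding relative of the oligoadenylate synthetases (0.675 and 0.770 against 2.09, 2.13 and 1.95 FPKM, adjusted p = 0.012).

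**Figure D3:**
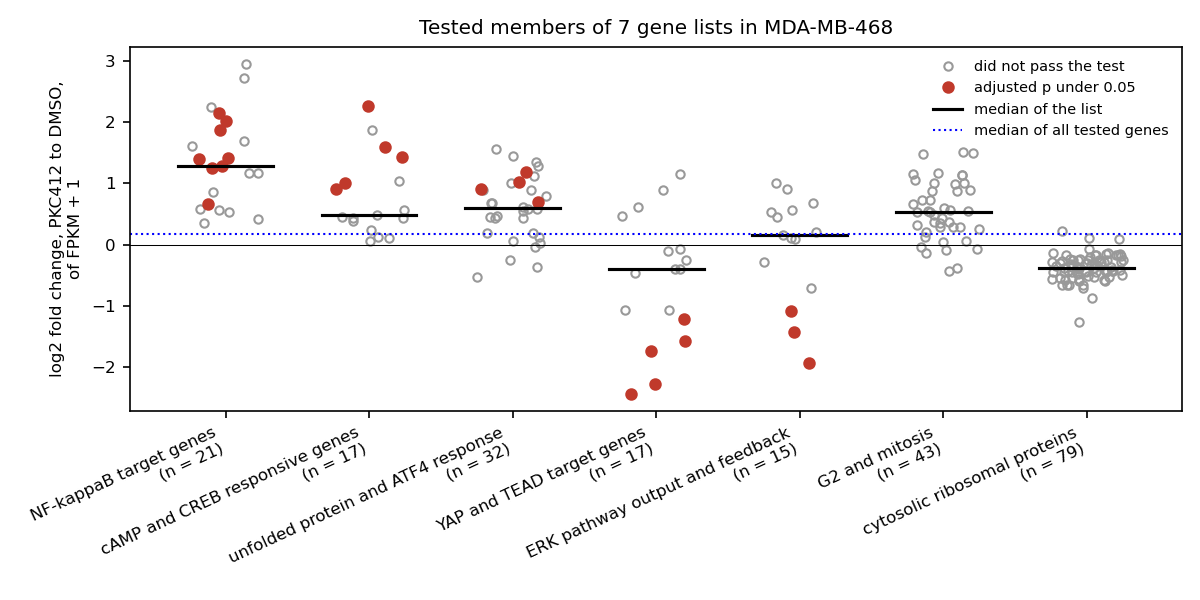
Log2 fold change of FPKM + 1, PKC412 to DMSO, for every tested member of 7 lists; filled red points passed the test, black bars are list medians and the dotted line is the median of all tested genes (0.18). All 21 NF-κB targets lie above 0, the 5 YAP and TEAD targets that passed lie below -1, and no cell-division or ribosomal protein gene is filled.

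Targets of YAP and TEAD were mostly lower. Of 17 tested list members 5 fell (0.700% of all genes did) and none rose, and 11 had all PKC412 values below all DMSO values, where 20.0% of all genes did. CTGF and ANKRD1 had PKC412 means below 1 FPKM and were tested only because of their DMSO values, so the filter set their direction. The list median was -0.40 as deposited, -0.52 rescaled and -0.60 after the GC adjustment, under which 10 members fell. Without either DMSO sample 3 members fell. CTGF, which encodes the matrix protein CCN2 and is a widely used YAP reporter, was at 7.40 and 9.30 FPKM in DMSO and 0.884, 0.622 and 0.658 FPKM in PKC412, or 11.6-fold lower by the means (log2 fold change -2.44 ± 0.13, adjusted p = 1.6e-04). CYR61, its relative CCN1, was at 27.9 and 32.3 FPKM in DMSO and 5.93, 5.09 and 5.35 FPKM in PKC412 (log2 fold change -2.27 ± 0.21, adjusted p = 0.0024). ANKRD1, a nuclear ankyrin-repeat protein, was at 1.74 and 2.66 against 0.0693, 0.0619 and 0.0631 FPKM and thus close to 0 in all PKC412 samples (log2 fold change -1.57 ± 0.12, adjusted p = 0.0012). For all 3 genes the highest PKC412 value was below the lowest DMSO value by more than 4-fold. AMOTL2, an angiomotin that binds YAP in the cytoplasm, fell 4.07-fold (11.3 and 15.4 against 3.83, 2.65 and 3.35 FPKM, adjusted p = 0.040). FJX1, the Four-jointed kinase homologue, fell 2.46-fold (24.1 and 23.5 against 9.16, 10.2 and 9.66 FPKM, adjusted p = 0.0072).

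Other members of the list did not pass as deposited. TGFB2 was at 4.62 and 7.48 against 3.06, 1.77 and 2.20 FPKM (adjusted p = 0.058) and F3, the tissue factor gene, was at 12.3 and 18.4 against 8.41, 5.44 and 6.47 FPKM (adjusted p = 0.14), and both passed after the GC adjustment (2.6e-05 and 8.0e-04). CRIM1 and MYOF had positive log2 fold changes of 1.16 and 0.89 (adjusted p = 0.30 and 0.35), and their values ran in the order of the GC slopes of the samples. VGLL1, a TEAD-binding cofactor that was not on the list, fell (281 and 280.4 against 155, 169.6 and 166 FPKM, adjusted p = 0.0066). It was chosen after its values were seen.

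TEAD factors bind the letters GGAATG, and CTGF and ANKRD1 are shown because these occur in them more than once. On both strands, 5 of the 13 tested list members with a promoter in the table (38.5%) held GGAATG, against 14.0% of all promoters and 10.7% of those of tested genes. It occurred in 27.5% of the promoters of genes that fell and in 4.62% of those of genes that rose. CTGF (chr6:131951323-131951622, minus strand) has 3 matches, beginning 169, 104 and 95 bases before the start, and ANKRD1 (chr10:90921038-90921337, minus strand) has 2, at 220 and 128 bases. The last CTGF match overlaps a match of the NF-κB consensus on the other strand. AMOTL2 and FJX1 had no GGAATG in this window. CYR61 and RELB had no entry.
CTGF: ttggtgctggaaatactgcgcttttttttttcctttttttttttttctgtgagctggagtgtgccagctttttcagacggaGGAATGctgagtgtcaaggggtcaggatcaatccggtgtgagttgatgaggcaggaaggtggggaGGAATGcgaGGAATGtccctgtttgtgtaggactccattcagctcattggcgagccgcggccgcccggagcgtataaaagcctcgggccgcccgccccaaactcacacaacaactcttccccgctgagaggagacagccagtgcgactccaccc
ANKRD1: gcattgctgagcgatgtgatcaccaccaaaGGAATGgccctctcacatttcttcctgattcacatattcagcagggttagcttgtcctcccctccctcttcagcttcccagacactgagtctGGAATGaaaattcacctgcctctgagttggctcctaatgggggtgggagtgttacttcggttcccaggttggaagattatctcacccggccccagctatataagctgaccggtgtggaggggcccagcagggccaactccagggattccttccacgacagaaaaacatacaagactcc

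Outputs of the ERK cascade split. FOSL1, the AP-1 subunit FRA-1, was at 23.1 and 22.5 FPKM in DMSO and 5.09, 5.52 and 5.09 FPKM in PKC412 (log2 fold change -1.93 ± 0.12, adjusted p = 3.4e-04). EPHA2, a receptor tyrosine kinase, was at 7.73 and 8.81 FPKM in DMSO and 2.60, 2.23 and 2.55 FPKM in PKC412 (log2 fold change -1.42 ± 0.14, adjusted p = 0.0032), and the nuclear ERK phosphatase DUSP5 was at 9.69 and 9.81 FPKM in DMSO and 3.85, 3.88 and 4.55 FPKM in PKC412 (log2 fold change -1.08 ± 0.13, adjusted p = 0.0072). These 3 of 15 tested list members fell (0.700% of all tested genes did) and none rose. DUSP4, another nuclear phosphatase, stood at 1.87 and 2.49 against 5.71, 4.84 and 5.45 FPKM (adjusted p = 0.10). DUSP6, its cytoplasmic counterpart, stood at 0.275 and 0.719 against 2.33, 1.21 and 1.91 FPKM (adjusted p = 0.098). Both had higher values in PKC412 and passed after the GC adjustment (0.0032 and 0.026). DUSP6 had a DMSO mean below 1 FPKM and was tested only because of its PKC412 values, so the filter set its direction. Cyclin D1 (CCND1) was at 30.4 and 28.1 against 19.7, 15.6 and 17.6 FPKM (adjusted p = 0.17, and 0.016 adjusted for GC). The list median was 0.16 as deposited and 0.02 adjusted. Among immediate-early factors as a whole, 2 of 18 rose (NR4A1 and ATF3), where 0.717% of all tested genes did. FOSL1 fell, and the median of these factors was 0.21. After the GC adjustment 4 rose, 1 fell and the median was 0.35.

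Genes responsive to cAMP and CREB had higher values. All 17 tested members had a positive fold change and 5 passed (0.717% of all tested genes did), with a median of 0.48 (0.38 after the GC adjustment, under which 7 passed). PDE4B and NR4A2 had DMSO means below 1 FPKM and were tested only because of their PKC412 values, so the filter set their direction. Without either DMSO sample, or without PKC412 replicate 1 or 3, 2 passed. PDE4B, a phosphodiesterase that breaks down cAMP, was at 0.144 and 0.376 FPKM in DMSO and 6.92, 3.74 and 4.81 FPKM in PKC412 (log2 fold change 2.26 ± 0.23, adjusted p = 0.0036). The orphan nuclear receptor NR4A1 was at 3.31 and 3.03 FPKM in DMSO and 11.5, 10.9 and 12.4 FPKM in PKC412 (log2 fold change 1.60 ± 0.13, adjusted p = 0.0017). SIK1, a salt-inducible kinase that holds CREB co-activators in the cytoplasm, rose 3.45-fold (1.97 and 2.52 against 9.28, 6.12 and 7.88 FPKM, adjusted p = 0.016). PER1, a repressor of the circadian clock, rose 2.48-fold (2.13 and 2.23 against 5.59, 4.70 and 5.94 FPKM, adjusted p = 0.017), and ATF3 rose 2.01-fold (6.56 and 6.52 against 13.3, 12.1 and 14.0 FPKM, adjusted p = 0.049). NR4A2, a relative of NR4A1, was at 0.221 and 0.494 against 5.68, 2.52 and 4.19 FPKM (adjusted p = 0.057), and the EGFR ligand AREG was at 3.29 and 4.24 against 9.00, 8.28 and 8.88 FPKM (adjusted p = 0.13). The full CRE, TGACGTCA, was found in 4 of 15 promoters of tested list members (26.7%, against 1.98% of all promoters and 3.41% of those of tested genes), and in none of those of the 5 genes that rose.

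The stress genes of the ATF4 pathway were also higher. Of 32 tested members of the unfolded protein and ATF4 list, 4 rose (0.717% of all tested genes did), none fell, and 25 had all PKC412 values above all DMSO values (42.7% of all tested genes did). With PKC412 replicate 2 left out 2 rose, and with any other sample left out 1 rose. The median was 0.59 as deposited and 0.43 adjusted, and 12 passed after the adjustment. DDIT4 (REDD1), an inhibitor of mTORC1, was at 102 and 93.5 FPKM in DMSO and 225, 211 and 232 FPKM in PKC412 (log2 fold change 1.18 ± 0.11, adjusted p = 0.0022). TRIB3, a pseudokinase that binds AKT, was at 162 and 148 FPKM in DMSO and 238, 253 and 259 FPKM in PKC412 (log2 fold change 0.69 ± 0.11, adjusted p = 0.022). CHAC1, which degrades glutathione, rose 2.11-fold (13.5 and 12.4 against 27.9, 25 and 29 FPKM, adjusted p = 0.036). These 3 genes are GC-rich, and their fold changes were larger after the adjustment (1.34, 0.80 and 1.25) than before. ATF4 itself was at 958 and 944 against 729.9, 861 and 821 FPKM and did not pass (adjusted p = 0.30). DNAJB9, a co-chaperone of the endoplasmic reticulum, stood at 0.529 and 1.43 against 7.53, 2.92 and 4.50 FPKM (adjusted p = 0.14). HERPUD1, which acts in protein degradation there, stood at 46.7 and 66.9 against 157, 118 and 141 FPKM (adjusted p = 0.11). The values of DNAJB9 and HERPUD1 ran in the order of the GC slopes of the samples. DNAJB9 had a DMSO mean below 1 FPKM and was tested only because of its PKC412 values, so the filter set its direction. PSAT1 and MTHFD2, enzymes of serine and folate metabolism, had log2 fold changes of 1.44 and 1.34 (adjusted p = 0.10 and 0.28). The transporter of large neutral amino acids SLC43A2 rose 2.94-fold (2.10 and 1.83 against 6.57, 5.09 and 5.70 FPKM, adjusted p = 0.018). Its relative SLC43A1 rose 1.74-fold (3.18 and 2.83 against 5.17, 5.31 and 5.20 FPKM, adjusted p = 0.044). They were the 2 that passed of 187 solute carriers tested, where 0.717% of all tested genes rose. The median of these carriers was 0.19 (0.05 adjusted, with 9 that rose and 5 that fell).

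Growth arrest and survival genes passed in few members as deposited and in more after the GC adjustment. The cyclin-dependent kinase inhibitor CDKN1A (p21) was at 27.1 and 28.2 FPKM in DMSO and 60.4, 59.4 and 61.7 FPKM in PKC412 (log2 fold change 1.10 ± 0.14, adjusted p = 0.0095). It was the 1 member that passed of 16 tested p53 targets (0.717% of all tested genes rose). After the GC adjustment 4 p53 targets rose and 1 fell, and the median was 0.45 as deposited and 0.24 adjusted. PLK2, a p53-responsive kinase, was lower (59.8 and 75.6 against 26.3, 22.5 and 25.7 FPKM, adjusted p = 0.075, and 6.7e-05 adjusted for GC). PIK3IP1, an inhibitor of PI3-kinase and a FOXO target, was at 2.30 and 2.24 FPKM in DMSO and 6.63, 6.29 and 6.30 FPKM in PKC412 (log2 fold change 1.18 ± 0.17, adjusted p = 0.017). It was the 1 that passed of 21 tested FOXO targets (0.717% of all tested genes rose). Of these targets 15 were higher without overlap, where 42.7% of all tested genes were, and 5 rose after the GC adjustment. Their median was 0.63 as deposited and 0.38 adjusted. TSC22D3 (GILZ), which glucocorticoids and FOXO factors induce, was at 83.8 and 84.9 FPKM in DMSO and 210.4, 199 and 210.0 FPKM in PKC412 (log2 fold change 1.28 ± 0.10, adjusted p = 0.0012), and its relative TSC22D1 was at 3.77 and 6.68 against 39.0, 22.5 and 30.8 FPKM (adjusted p = 0.043). SGK1, a serum- and glucocorticoid-induced kinase, rose 5.35-fold (0.827 and 2.04 against 9.87, 5.57 and 7.62 FPKM, adjusted p = 0.016).

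None of 13 tested members of the BCL2 family passed the limma test (5 at an unadjusted p under 0.05), and the median was 0.03 (-0.12 rescaled and 0.03 adjusted). The pro-apoptotic BCL2L11 (BIM) was at 2.81 and 3.4 against 9.49, 6.50 and 7.30 FPKM (adjusted p = 0.22), and the pro-apoptotic BBC3 (PUMA) at 3.67 and 2.92 against 5.62, 6.32 and 6.15 FPKM (adjusted p = 0.13). The anti-apoptotic BCL2L1 (BCL-XL) was at 36.5 and 36.6 against 22.3, 19.3 and 22.7 FPKM (adjusted p = 0.060). All 3 passed after the GC adjustment, the first 2 higher and the last lower (0.022, 6.4e-04 and 0.0093). TNFRSF12A, the receptor of the cytokine TWEAK, was at 189 and 195 FPKM in DMSO and 87.5, 93.2 and 92.2 FPKM in PKC412 (log2 fold change -1.07 ± 0.13, adjusted p = 0.0085), but with an adjusted p of 0.17 after the GC adjustment. No caspase or caspase inhibitor passed in limma among 19 tested (3 at an unadjusted p under 0.05), and their median turned from 0.41 as deposited to -0.05 adjusted.

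Among secreted ligands the direction depended on the gene. EDN2, the vasoactive peptide endothelin-2, was at 42.1 and 38.2 FPKM in DMSO and 4.03, 5.94 and 5.12 FPKM in PKC412 (log2 fold change -2.78 ± 0.27, adjusted p = 0.0031). The Wnt ligand WNT6 fell 3.12-fold (148 and 92.0 against 33.2, 44.2 and 37.8 FPKM, adjusted p = 0.012). WNT7B fell 2.31-fold (19.6 and 19.0 against 8.46, 7.45 and 9.14 FPKM, adjusted p = 0.0093). WNT6 and WNT7B were the 2 that passed of 12 Wnt ligands and frizzled receptors, where 0.700% of all tested genes fell. The median of the 12 was -0.11 (0.01 adjusted, with 3 that fell). BMP4 was at 3.75 and 4.86 against 1.49, 1.14 and 1.38 FPKM (adjusted p = 0.050), just inside the threshold. SMOC1, a secreted protein that antagonises BMP signalling, was at 2.71 and 2.76 FPKM in DMSO and 21.2, 19.3 and 21.3 FPKM in PKC412 (log2 fold change 2.53 ± 0.13, adjusted p = 1.6e-04). Among genes that passed, this was the largest fitted rise after SNORD26 and PCNA-AS1. EFNA1, the ligand of EPHA2, rose (47.1 and 46.6 against 78.1, 80.7 and 81.5 FPKM, adjusted p = 0.0048) where its receptor fell. ADM (adrenomedullin) fell 1.96-fold (7.49 and 6.91 against 4.02, 3.65 and 3.33 FPKM, adjusted p = 0.036). ARTN (artemin, a GDNF-family ligand) fell 1.67-fold (21.4 and 21.1 against 11.2, 13.3 and 13.7 FPKM, adjusted p = 0.046). STC2, a secreted glycoprotein of the stress response, rose 2.67-fold (6.56 and 6.89 against 20.6, 14.8 and 18.4 FPKM, adjusted p = 0.014).

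Structural genes of epithelium and of cell shape were also among those that passed. RND1, a small GTPase that acts on cell shape, was at 1.38 and 1.18 FPKM in DMSO and 5.49, 5.62 and 5.62 FPKM in PKC412 (log2 fold change 1.53 ± 0.11, adjusted p = 0.0011). RHOV, another small GTPase, rose 2.43-fold (59.5 and 45.7 against 111, 144 and 128 FPKM, adjusted p = 0.043). Gap junction genes split. GJA5 (connexin 40) was at 4.36 and 4.65 FPKM in DMSO and 0.795, 0.678 and 0.693 FPKM in PKC412 (log2 fold change -1.68 ± 0.09, adjusted p = 2.1e-04). GJB2 rose 3.26-fold (0.755 and 0.894 against 3.31, 2.05 and 2.70 FPKM, adjusted p = 0.037). Involucrin (IVL), a protein of the cornified envelope, fell 2.54-fold (10.3 and 10.4 against 3.79, 4.32 and 4.08 FPKM, adjusted p = 0.0033). TGM1, the transglutaminase that cross-links it, fell 1.80-fold (4.75 and 4.78 against 2.55, 2.41 and 2.96 FPKM, adjusted p = 0.037). The water channel AQP3 rose 2.36-fold (15.8 and 16.4 against 39.4, 35.8 and 38.7 FPKM, adjusted p = 0.0074), and SNAI1, a repressor of E-cadherin, rose 3.02-fold (0.957 and 1.41 against 3.90, 3.49 and 3.37 FPKM, adjusted p = 0.0082). ENC1, an actin-binding kelch protein, fell 4.58-fold (8.20 and 11 against 2.05, 1.99 and 2.24 FPKM, adjusted p = 0.034). FGD3, an exchange factor for CDC42, fell 6.23-fold (5.20 and 4.48 against 0.870, 0.817 and 0.641 FPKM, adjusted p = 0.0062). No keratin passed in limma among 23 (11 at an unadjusted p under 0.05), and their median was -0.20. After the GC adjustment 2 keratins rose, 3 fell and the median was -0.17. Connexins were grouped after their values were seen.

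Genes of lipid supply had higher values. Of 25 tested genes of cholesterol synthesis and uptake, 20 were higher without overlap (42.7% of all tested genes were). The median was 0.67 as deposited and 0.38 adjusted. SQLE, the squalene epoxidase, was at 1.80 and 5.43 against 22.4, 11.2 and 15.3 FPKM (adjusted p = 0.24), and the synthase HMGCS1 was at 5.04 and 7.70 against 32.9, 19.1 and 24.1 FPKM (adjusted p = 0.25). INSIG1, which retains the sterol sensor, was at 5.65 and 8.19 against 25.8, 16.4 and 21.2 FPKM (adjusted p = 0.15) and passed after the adjustment (0.0080). The values of SQLE, HMGCS1 and INSIG1 ran in the order of the GC slopes of the samples. Among 14 tested genes of fatty acid synthesis none passed in limma (4 at an unadjusted p under 0.05), with medians of 0.75 and 0.42.

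In large gene families the medians depended on the GC adjustment. None of 43 tested genes of G2 and mitosis passed in limma (3 at an unadjusted p under 0.05), although 29 had higher values without overlap, where 42.7% of all tested genes did. Their median fell from 0.54 to 0.16 on adjustment, and their median GC content was 42.5% against 50.1% for all tested genes. HMMR, a hyaluronan receptor of the spindle, shows the pattern, with 0.854 and 2.50 against 9.37, 3.93 and 6.60 FPKM in the order of the GC slopes (adjusted p = 0.28). Splicing factors of the SR and hnRNP families went from a median of 0.35 to -0.10, and 307 numbered zinc finger genes from 0.23 to -0.01, so that the direction of both turned with the adjustment. For DNA replication genes the median went from 0.28 to 0.01.

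Other families had negative medians with and without the adjustment, and none of their genes passed in limma. At an unadjusted p under 0.05 were 5, 8, 12 and 11 genes of the 4 families in the order given here. Of 79 cytosolic ribosomal protein genes 47 were lower without overlap, where 20.0% of all tested genes were, with medians of -0.37 as deposited and -0.35 adjusted. Nuclear genes of the respiratory chain (87 tested, 48 lower without overlap) had medians of -0.31 and -0.22, and mitochondrial ribosomal proteins (76 tested, 40) -0.21 and -0.23. The calcium-binding S100 proteins (17 tested, 15 lower without overlap) had medians of -0.61 and -0.30, the largest change on adjustment among the 4 families. The same 4 families had medians of -0.34, -0.23, -0.15 and -0.46 in ZR75-1 as deposited.

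**Figure D4:**
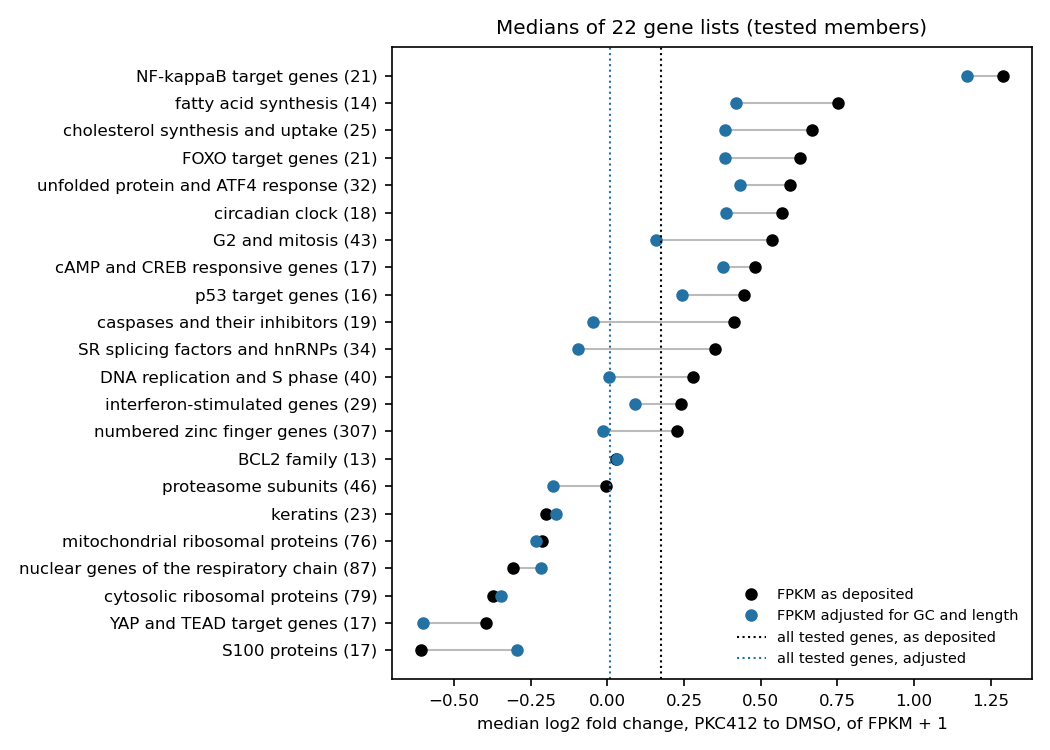
Median log2 fold change of FPKM + 1, PKC412 to DMSO, for 22 lists (number of tested members in brackets), with FPKM as deposited in black and adjusted for GC content and length in blue; dotted lines mark the medians of all tested genes (0.18 and 0.01). The NF-κB list stays at 1.17 when adjusted, whereas caspases, splicing factors and zinc fingers move to or below 0.

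Transcripts of candidate kinase targets of PKC412, as named in the study, SYK among them, were examined together with STAT3. The candidate FER was below the filter. Of the 11 tested genes IKBKE, the IκB kinase ε, was the 1 that passed, where 0.717% of all tested genes rose. IKBKE was at 4.71 and 4.91 FPKM in DMSO and 8.87, 8.42 and 9.68 FPKM in PKC412 (log2 fold change 0.78 ± 0.12, adjusted p = 0.021). Its relative TBK1 was at 1.41 and 2.32 against 4.22, 2.63 and 3.05 FPKM (adjusted p = 0.56). SYK was at 5.78 and 6.26 against 9.44, 7.48 and 8.79 FPKM (adjusted p = 0.25) and STAT3 at 20.2 and 24.5 against 36.5, 23.6 and 30.0 FPKM (adjusted p = 0.37). Of 16 tested STAT3 targets 1 rose (0.717% of all tested genes did), BCL3, which is also on the NF-κB list. The median of these targets was -0.03 (0.02 adjusted). HIF1A, the oxygen-regulated factor, differed most in that list and was at 0.579 and 2.20 against 15.3, 4.42 and 8.06 FPKM (adjusted p = 0.28), in the order of the GC slopes. The candidates AURKA, MARK2 and CAMK2G had log2 fold changes of 0.65, 0.43 and -0.06 with adjusted p of 0.30, 0.29 and 0.85. The median of the candidates and STAT3 was 0.43 as deposited and 0.06 adjusted. None of 7 tested protein kinase C and D isoforms, the namesake targets of the compound, passed in limma (1 at an unadjusted p under 0.05). Their median was 0.19 (0.07 adjusted), and PRKCD was at 7.58 and 9.10 against 9.99, 8.67 and 10.3 FPKM (adjusted p = 0.53). Of 7 ERBB receptors and ligands none passed either (4 at an unadjusted p under 0.05), and EGFR was at 25.8 and 28.9 against 66.9, 31.5 and 44.2 FPKM (adjusted p = 0.29). Their median was 0.48 (0.30 adjusted, with 2 that rose). Of 20 SRF targets and actin genes 1 rose, where 0.717% of all tested genes did. It was ITGA5, the fibronectin receptor subunit (0.614 and 0.662 against 1.97, 1.61 and 1.79 FPKM, adjusted p = 0.047). The median of the 20 was 0.03 both as deposited and adjusted.

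The largest fold changes lay in very short RNAs, whose FPKM also varied widely within treatments. SNORD26, a small nucleolar RNA in an intron of SNHG1, was listed at 0 in both DMSO samples and at 195, 289 and 274 FPKM in PKC412 (adjusted p = 3.4e-07), while its host was at 133 and 183 against 272, 236 and 263 FPKM. MIR3074 was at 40.5 and 38.4 FPKM in DMSO and listed at 0 in the 3 PKC412 samples (adjusted p = 1.4e-07), and its hairpin overlaps that of MIR24-1 on the other strand, which was listed at 0 in all 5. Of 153 tested small nucleolar RNAs, 66 were at 0 in 1 sample and above 10 FPKM in another of the same treatment, as were 84 of 124 microRNA genes. PCNA-AS1, which lies antisense within PCNA, was at 1.9e-07 and 0.0520 against 155, 32.2 and 89.4 FPKM (adjusted p = 0.018), and its reads cannot be told apart from those of PCNA where strand was not used. H2AFB2, which fell to at most 0.123 FPKM, has near-identical copies and is uncertain for that reason.

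On the same genes, the luminal line ZR75-1 had 66 genes higher (0.577%) and 21 lower (0.184%) in PKC412. Of the 82 genes that rose in MDA-MB-468, 14 also rose in ZR75-1, and of the 80 that fell, 10 also fell and 3 rose. The difference of the responses itself passed in 26 genes (0.227%), of which 17 had changed in MDA-MB-468. NR4A1, SMOC1, NFKB2, EFNA1 and TSC22D3 rose in both lines.

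CTGF fell more in MDA-MB-468, with a difference of the log2 fold changes of -2.26 ± 0.18 (adjusted p = 0.0026), as did ANKRD1 with -1.53 ± 0.18 (adjusted p = 0.015). Both were near 0 in ZR75-1 with DMSO (0.191 ± 0.0167 and 0.0321 ± 0.00852 FPKM, mean ± SD). GJA5 and HRCT1 were likewise near 0 there (0.0289 ± 0.00476 and 0.346 ± 0.116 FPKM), and ZBED2, a zinc finger gene, was listed at 0 in both DMSO samples. Their differences were -1.65, -2.22 and -1.58. DDIT4 and TRIB3, by contrast, were expressed in ZR75-1 without a higher mean in PKC412, with 19.9 ± 2.22 to 15.5 ± 0.679 FPKM and 49.2 ± 3.11 to 33.3 ± 2.77 FPKM from DMSO to PKC412 (mean ± SD, n = 2 and 3), and their responses differed by 1.52 ± 0.15 and 1.24 ± 0.15 (adjusted p = 0.0094 and 0.016). RND1 was at 41.5 ± 5.39 to 46.3 ± 0.0142 FPKM in ZR75-1 from DMSO to PKC412 (difference 1.37 ± 0.16, adjusted p = 0.015). IL1RN was at 0.141 ± 0.0240 FPKM in ZR75-1 with DMSO and differed by 1.72 ± 0.19 (adjusted p = 0.012).

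ARTN, HS6ST1 (a heparan sulfate 6-O-sulfotransferase) and TCF7L1 (a TCF repressor of Wnt targets) went in opposite directions in the lines. ARTN, lower in PKC412 in MDA-MB-468, went from 1.79 ± 0.0643 to 4.33 ± 0.339 FPKM in ZR75-1 (adjusted p of the difference 0.012). HS6ST1 was at 27.1 and 27.4 against 17.1, 15.1 and 16.6 FPKM in MDA-MB-468 and went from 18.1 ± 2.01 to 32.2 ± 3.31 FPKM in ZR75-1 (adjusted p of the difference 0.015). TCF7L1 was at 8.89 and 9.08 against 4.99, 4.81 and 5.18 FPKM in MDA-MB-468 and went from 2.26 ± 0.0513 to 4.45 ± 0.324 FPKM in ZR75-1 (adjusted p of the difference 0.012). Of the NF-κB list, 0 of 21 members passed the limma test of the difference. An unadjusted p under 0.05 in that test was reached by 12 of the 21, and by 661 of all 11430 tested genes. The list median was 0.35 in ZR75-1 against 1.29 in MDA-MB-468. Members were kept on their MDA-MB-468 values, some only for those in PKC412, so the filter favoured a larger median in MDA-MB-468. These medians alone therefore cannot show that the lines differed.

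**Figure D5:**
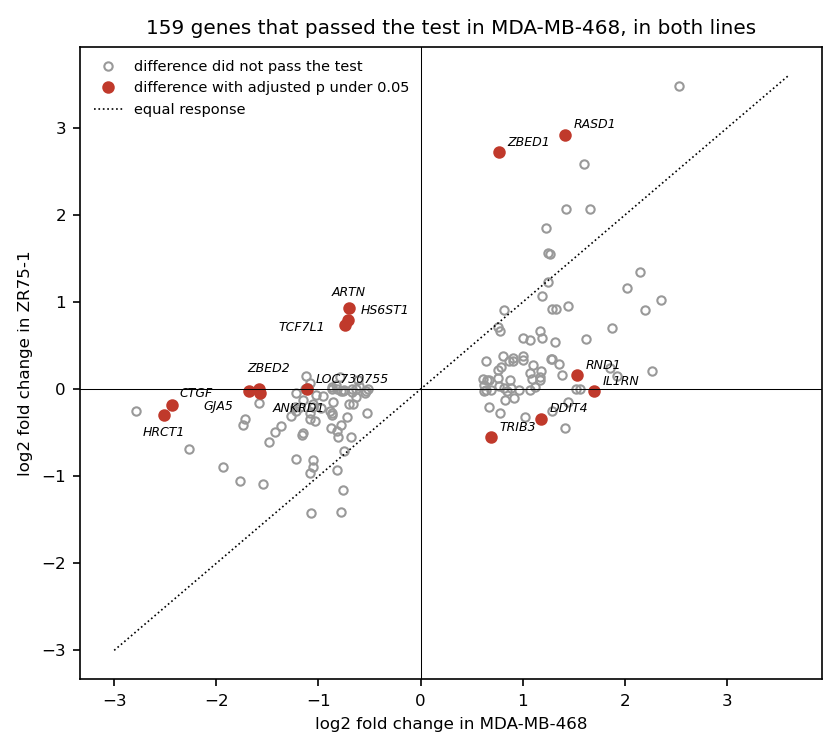
Log2 fold change of FPKM + 1, PKC412 to DMSO, in MDA-MB-468 (horizontal) and ZR75-1 (vertical) for 159 genes that passed the test in MDA-MB-468, leaving out SNORD26, MIR3074 and PCNA-AS1, whose values exceed the axes; red points passed the test of the difference. CTGF, HRCT1, GJA5, ZBED2 and ANKRD1 lie near the horizontal axis at the left, and ARTN, HS6ST1 and TCF7L1 lie below 0 in MDA-MB-468 and above 0 in ZR75-1.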

How the data were processed

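RNA was sequenced on a HiSeq2000 with TruSeq libraries. Per the labels and the submitters' processing notes (CASAVA 1.82, TopHat2, hg19), the authors aligned reads and deposited FPKM per gene from an in-house pipeline, 1 table a sample. The annotation is not given in the sources used here. The methods name triplicates, and 2 DMSO samples were analysed here. Read depth is unknown, because the low FPKM gave no common step, so precision comes from replicate spread alone.

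log2(FPKM + 1) was fitted with limma 3.58.1 (R 4.3.3, eBayes with a trend) in 1 fit over the 4 groups (10 samples, 6 residual df), with Benjamini-Hochberg adjustment over the 11430 tested genes at an adjusted p under 0.05. The same fit tested the difference between the lines. Genes near 0 in ZR75-1 add almost no spread to it, so a fit of MDA-MB-468 alone (3 residual df) was an alternative. GC content and length came from GENCODE release 29 transcripts by symbol. They were removed within each sample by polynomials of degree 3 fitted to the log2 deviation from the line mean. Promoters came from RefSeq (GRCh38.p14) by symbol, and no deposited coordinate was used.

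The genes and lists were chosen with earlier results of these data known. Named genes were the 25 largest rises and 25 largest falls that passed without overlap, the members of each list that passed and the 4 largest that did not, the study's 11 candidate kinases (SYK among them) and STAT3, and the markers, of which some are not reported here. AQP3, ARTN, ATF4, GJB2, H2AFB2, HS6ST1, KLK9, PCNA, RRAGC, SNHG1, STC2, TCF7L1, TGM1 and VGLL1 fell outside this and were chosen after their values were seen. Same-numbered DMSO and PKC412 samples deviated with r = -0.18 and -0.12. With 2 DMSO samples 1 deviation is the mirror of the other, so these values cannot show whether replicate numbers pair the samples. Alternatives were other pseudocounts, filters, scalings and GC terms, a replicate block, no trend, and leaving out each sample. Tables were made with Python 3.11.15, pandas 2.3.3 and numpy 2.4.6.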

Additional observations from a re-analysis of the deposited data

Results flagged for a closer look

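In 26 genes the response to PKC412 differed between MDA-MB-468 and ZR75-1 by the limma test of the difference itself (adjusted p under 0.05). Values are log2 fold changes of FPKM + 1 in MDA-MB-468 minus those in ZR75-1.

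Of 9 genes that did not pass in MDA-MB-468, all had changed in ZR75-1. CGA, the α subunit of glycoprotein hormones, differed by -3.86, the sodium pump subunit ATP1B3 by -3.17 and the adenosine receptor ADORA1 by -2.80. For the protease inhibitor TIMP3 the difference was -2.10, for the initiator caspase CASP9 -2.06, for the tetraspanin-like TM4SF1 -1.95 and for the co-chaperone BAG1 -1.24. In the other direction stood FOXI1 (1.48) and the haem oxygenase HMOX1 (1.67), which fell in ZR75-1.

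RASD1, a Ras-related protein, and ZBED1 rose in both lines, with differences of -1.51 and -1.96. ZBED1 rose more in ZR75-1. From DMSO to PKC412 the RASD1 mean went from 0.102 to 1.94 FPKM in MDA-MB-468 and from 0.533 to 10.65 FPKM in ZR75-1. At such low values the added 1 FPKM understates a change, so its difference does not show a larger fold change in ZR75-1. Genes that fell in MDA-MB-468 and were near 0 in ZR75-1 were CTGF (-2.26), HRCT1 (-2.22), GJA5 (-1.65), ZBED2 (-1.58), ANKRD1 (-1.53) and LOC730755 (-1.11). ARTN (-1.63), HS6ST1 (-1.50) and TCF7L1 (-1.47) fell in MDA-MB-468 and rose in ZR75-1. IL1RN (1.72), DDIT4 (1.52), RND1 (1.37) and TRIB3 (1.24) rose in MDA-MB-468 and did not pass in ZR75-1.

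The short RNAs SNORD26 (7.97) and MIR3074 (-5.34) were listed at 0 in all ZR75-1 samples. Groups of 2 and 3 samples were not examined for single outlying samples.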

How the results depend on the processing

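All 162 calls kept their sign under every setting in which the gene was tested, and no call of a named gene reversed. The number of calls moved from 162 to 91 with a pseudocount of 0.1, to 98 with a filter at 5 FPKM, to 266 without a filter, to 512 after adjustment for GC content and length, and to 438 with that adjustment in MDA-MB-468 alone, a setting added after seeing the data. Leaving out 1 sample at a time gave 62 to 167 calls, namely 65 without DMSO replicate 1, 62 without DMSO replicate 2, 74, 167 and 66 without PKC412 replicates 1, 2 and 3. Where a DMSO sample was left out the lone one was assumed to vary like the other groups. Members of the gene lists that passed numbered 51, and 139 adjusted for GC, 130 with that adjustment in MDA-MB-468 alone, and 27 to 56 with 1 sample left out. Differences between the lines numbered 26, and 48 with a pseudocount of 5, 68 without a filter, 147 adjusted for GC, 154 with the GC slope as a covariate, and 13 to 38 with 1 sample left out. The cause of these changes was not tested.

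A replicate block called 4 genes, and 5 with the GC adjustment, all of them short RNAs of the gene lists. Of the 162 calls 2 were kept with either, SNORD26 and MIR3074. The block called 0 differences between the lines in limma with either (199 and 552 genes at an unadjusted p under 0.05). The samples share only a number, and whether it marks a shared culture or batch is unknown. Of the named genes that passed, TNFSF9, C10orf54 and GADD45B not counted, fitting MDA-MB-468 alone ended 23 calls. Among them were TNF, TRIB3, SIK1, PER1, IKBKE and OASL, and a pseudocount of 0.1 ended 19. Without DMSO replicate 1 or 2, 44 and 41 of these calls were lost, and without PKC412 replicates 1, 2 and 3, 34, 19 and 35. Depth is unknown, so no counting error can be given.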
